A study of Mus musculus with 11 samples.

Results

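Genomic sites bound by SOX2 and POU3F1, but not by POU5F1, ZIC2 or OTX2, were examined in mouse EpiSCs (epiblast stem cells, which correspond to the epiblast of the postimplantation embryo). They were selected on the deposited peak lists as EpiSC SOX2 peaks on chromosomes 1 to 19 and X that shared at least 1 bp with an EpiSC POU3F1 peak and none with a peak of the other three TFs. This selection gave 6903 of 63672 SOX2 peaks (10.8%), which are called SOX2-POU3F1 sites here. ChIP-seq was carried out on cells of strain 129/Sv that were transiently transfected with a pCAGGS plasmid expressing 1 of the 5 TFs with the biotin acceptor peptide BLRP together with the biotin ligase BirA, and chromatin was collected with streptavidin. EpiSCs were grown without feeders in medium with activin (20 ng/ml) and FGF2 (10 ng/ml). In the second culture, referred to as activin-free, activin was removed 18 hr before harvest. Each TF was represented by 1 library in each culture, so replicate error could not be estimated and a difference between the cultures cannot be told apart from a difference between their libraries. Transfected cells carried the tagged TF in addition to their own, and by the paper's transfection efficiency not every cell was transfected. The sequenced input was not analysed here.

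SOX2 is an HMG-domain protein that bends DNA at short AT-rich sequences and often acts with a partner TF bound next to it. POU5F1 and POU3F1 are POU-domain proteins, which contact DNA through a POU-specific domain and a homeodomain and share the octamer as binding sequence. SOX2 and POU5F1 are the classical partners of the pluripotent state, whereas POU3F1 becomes abundant in the postimplantation epiblast and in neural progenitors, where SOX2 persists and POU5F1 is lost.

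The DNA of the sites is shown first, because the 2 peaks of a site differed in the sequence at their midpoints. The SOX sequence was CATTGT or CTTTGT, which read ACAATG or ACAAAG on the other strand, and the octamer was ATGCAAAT or ATGCATAT. Both strands were searched without mismatch, and a match is a description of the letters only. A SOX sequence lay within 20 bp of the SOX2 midpoint in 1194 sites (17.3%), an octamer lay within 20 bp of the nearest POU3F1 midpoint in 82 (1.19%), and 15 sites had both. Of these 15, the 3 with the highest SOX2 scores whose stretches did not overlap and contained no exon are shown as 120 bp around each midpoint, from mm9, with all SOX sequences and octamers in capitals. The score of a peak is -10 times the base 10 logarithm of the MACS p-value.
Site A at the SOX2 midpoint, chr10:57296626-57296745, plus strand: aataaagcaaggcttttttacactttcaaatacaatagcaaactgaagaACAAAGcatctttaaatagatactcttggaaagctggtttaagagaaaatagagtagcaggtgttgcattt
Site A at the POU3F1 midpoint, chr10:57296322-57296441, plus strand: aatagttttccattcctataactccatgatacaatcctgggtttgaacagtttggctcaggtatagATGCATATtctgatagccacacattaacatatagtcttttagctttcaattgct
Site B at the SOX2 midpoint, chr8:66205475-66205594, plus strand: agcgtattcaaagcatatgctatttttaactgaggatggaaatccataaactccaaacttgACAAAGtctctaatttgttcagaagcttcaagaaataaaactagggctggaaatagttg
Site B at the POU3F1 midpoint, chr8:66205991-66206110, plus strand: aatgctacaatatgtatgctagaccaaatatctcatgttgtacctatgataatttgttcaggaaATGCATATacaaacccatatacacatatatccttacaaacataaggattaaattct
Site C at the SOX2 midpoint, chr6:21778987-21779106, plus strand: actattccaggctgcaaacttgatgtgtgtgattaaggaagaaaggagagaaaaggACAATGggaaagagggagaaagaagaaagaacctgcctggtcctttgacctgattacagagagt
Site C at the POU3F1 midpoint, chr6:21779335-21779454, plus strand: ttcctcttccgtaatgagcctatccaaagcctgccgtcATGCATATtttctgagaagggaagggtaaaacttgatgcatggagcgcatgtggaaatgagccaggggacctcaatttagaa

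Sites A and B lay between genes, 44.3 kb from the start of Serinc1 and 479 kb from that of Tll1, and site C lay in an intron of Tspan12. At site A, a SOX2 peak of score 190 and a POU3F1 peak of score 790 had midpoints 304 bp apart. The distance was 516 bp at site B (scores 180 and 1576) and 348 bp at site C (124 and 59.9). The SOX sequence at each SOX2 midpoint and the octamer at each POU3F1 midpoint, here ATGCATAT, follow from how these sites were picked. Among all sites, a SOX sequence also lay within 20 bp of the nearest POU3F1 midpoint in 639 (9.26%).

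SOX2-POU3F1 sites were the largest class of SOX2 peaks that met another TF. Of the 11269 SOX2 peaks that overlapped a POU3F1 peak, 61.3% were SOX2-POU3F1 sites, whereas 2984 overlapped POU5F1 and POU3F1 without ZIC2 or OTX2. They engaged 6916 (6.14%) of the 112687 POU3F1 peaks. A single POU3F1 peak was present at 6599 sites, 2 were present at 303, and 3 at 1. The SOX2 scores of the sites ranged from 50 to 1048 with a median of 99.5, near the median of 93.8 of the 42646 SOX2 peaks that met no other TF. POU3F1 scores at the sites ranged from 50 to 3233 with a median of 268, and the median was 152 for the 69806 POU3F1 peaks that met no other TF. The POU3F1 peaks at the sites were also wider, with medians of 1239 and 931 bp, and wider peaks have more positions at which an overlap of 1 bp can arise. Across the sites, the scores of both TFs were unrelated in rank (Spearman's rho = -0.03, n = 6903 sites of the same 2 libraries). These EpiSC values come from the lists that defined the sites and were not tested.

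At the border of the selection, 107 sites shared 20 bp or less with the POU3F1 peak, and 116 SOX2 peaks without other TFs had a POU3F1 peak within 20 bp of their edge. A POU5F1 peak lay within 1000 bp of the edge of 1002 sites (14.5%), an OTX2 peak within that distance of 416 (6.03%) and a ZIC2 peak of 127 (1.84%). Because POU3F1 peaks extended beyond the SOX2 peaks, 772 of the 6916 POU3F1 peaks (11.2%) touched a POU5F1 peak elsewhere along their length.

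The SOX2 and POU3F1 peaks of a site were mostly displaced from each other. Their shared stretch had a median of 522 bp, or 74.0% of the SOX2 peak, but their midpoints were 452 bp apart in the median and lay within 100 bp of each other in 813 sites (11.8%). As a fraction of the largest distance at which 2 peaks of those widths can overlap, the median was 0.437. By the same measure, the midpoints of all 32227 overlapping POU5F1 peaks and their nearest POU3F1 peaks were closer, with a median of 175 bp, a fraction of 0.143, and 33.6% within 100 bp. SOX2 peaks with OTX2 only were intermediate, with a median of 306 bp, a fraction of 0.345 and 19.2% within 100 bp. The displacement was also seen with POU5F1 present: at the 2984 SOX2 peaks with POU5F1 and POU3F1 the SOX2 midpoint was 438 bp from that of POU3F1 (12.4% within 100 bp) and 393 bp from that of POU5F1 (14.1%). As fractions these medians were 0.345 and 0.385, lower than the 0.437 of the SOX2-POU3F1 sites.

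**Figure D1:**
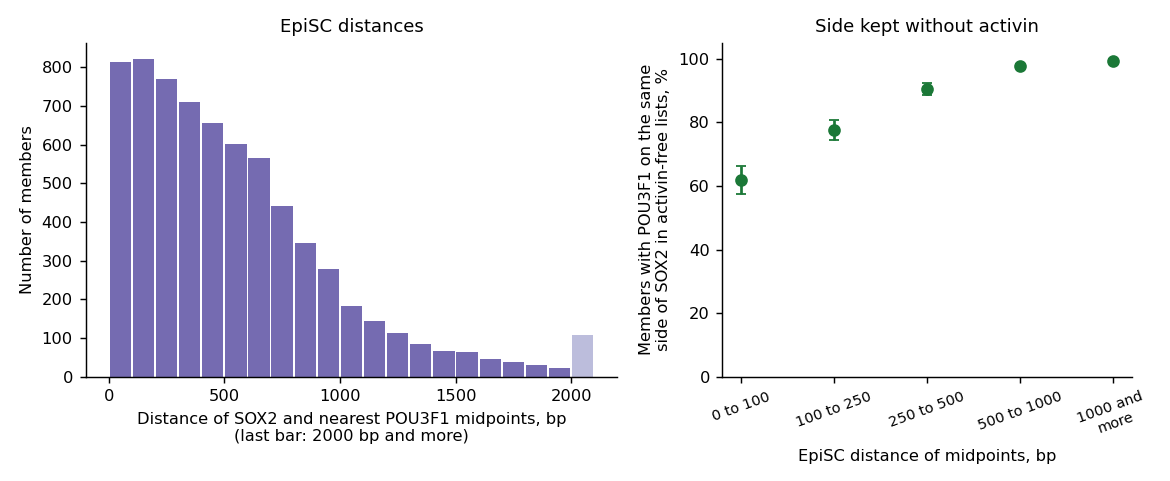
Left, number of SOX2-POU3F1 sites by the distance in bp between the SOX2 midpoint and the nearest POU3F1 midpoint in EpiSCs, in bins of 100 bp with all distances of 2000 bp and more in the last bar. Right, percent of sites with both peaks matched in the activin-free lists in which POU3F1 lay on the same side of SOX2 as in EpiSCs, with 95% Wilson intervals, with 62.0% at distances under 100 bp and 99.4% at 1000 bp and more.

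This displacement was also measured in the activin-free lists, which the selection had not used. Positions and scores were compared where the SOX2 peak of a site met an activin-free SOX2 peak and its nearest POU3F1 peak met, at any point along its length, an activin-free POU3F1 peak. Among the 4447 sites where both did, the median distance of the midpoints was 498 bp in EpiSCs and 560 bp in the activin-free lists. The SOX2 midpoint of a site moved by a median of 70.0 bp between the cultures (n = 5310) and the POU3F1 midpoint by 97.0 bp (n = 5802). Where the EpiSC midpoints were at least 250 bp apart, POU3F1 lay on the same side of SOX2 in both cultures in 3180 of 3321 sites (95.8%, 95% Wilson interval 95 to 96.4). For distances under 100 bp the side was the same in 62.0% (57.3 to 66.4). Each activin-free peak was matched by its overlap with the EpiSC peak, which limits how far a midpoint can move. At large distances the same side therefore follows largely from the matching. The small shifts and similar distances are limited in the same way. Wilson intervals here cover counting error only.

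The sequence at the midpoints followed the same displacement. Within 100 bp of the SOX2 midpoint, the SOX sequence was present in 57.1% of the sites (95% interval 55.9 to 58.3), compared with 30.7% of windows of equal width 1000 bp to either side. All 63672 SOX2 peaks gave 57.2% and 29.9%, and SOX2 peaks without other TFs 56.8%, a difference of 0.352 percentage points (-0.909 to 1.61, Newcombe interval). Around the POU3F1 midpoints of the sites, the share with the SOX sequence was 36.9% (35.8 to 38.0), which was 20.2 points (18.6 to 21.8) lower than at the SOX2 midpoints. The SOX sequence under SOX2 was thus about as frequent at these sites as in SOX2 peaks in general.

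The octamer had the opposite distribution. At the SOX2 midpoint it was found in 231 sites (3.35%, 2.95 to 3.80), against 3.95% of the windows 1000 bp away and 3.04% of all SOX2 peaks. These windows include the POU3F1 side of each site, so they do not give a level away from the POU3F1 peak. SOX2 peaks without other TFs had the octamer in 2.60%, 0.751 points (0.322 to 1.22) less than the sites. At the POU3F1 midpoint its share was 6.22% (5.67 to 6.81) against 3.54% of the windows 1000 bp away. POU3F1 peaks without other TFs had the octamer more often, in 7.61%, and the difference was -1.40 points (-1.98 to -0.772). SOX2 peaks that met both POU5F1 and POU3F1 had it at the SOX2 midpoint in 5.50%, 2.15 points above the SOX2-POU3F1 sites, for which the difference was -2.15 (-3.11 to -1.26).

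A site with an octamer at its SOX2 midpoint is shown for contrast, the one with the highest SOX2 score among the 45 sites with an octamer within 20 bp of that midpoint, chosen by the same criteria as above. It lay between genes, 179 kb from the nearest coding gene start, with a SOX2 score of 349, a POU3F1 score of 674 and midpoints 942 bp apart. The printed stretch, with its octamer, lay outside the nearest POU3F1 peak, which began at position 7483062.
Site D at the SOX2 midpoint, chr5:7482813-7482932, plus strand: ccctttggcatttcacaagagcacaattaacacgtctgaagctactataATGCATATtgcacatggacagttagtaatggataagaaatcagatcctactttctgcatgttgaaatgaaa

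Among all words of 6 letters present in at least 5% of the windows, ACAATG ranked first at the SOX2 midpoints, with 30.7% of sites against 14.2% of windows 1000 bp away, a ratio of 2.16. CAATTG and ACAAAG (1.93) followed. At the POU3F1 midpoints TAATTA ranked first, with 18.8% against 10.7% and a ratio of 1.76, and words with TAAT or ATGCAT filled much of the list, including GCATTA (1.68), TAATGA (1.64) and ATGCAT (1.64). TAAT is the core that homeodomains bind, and ATGCAT is contained in the octamer ATGCATAT. TAATTA, which was examined after its rank was known, was present in 9.18% of the SOX2 midpoint windows and in 5.88% of those of all SOX2 peaks. It was present in 11.6% of windows 1000 bp from the SOX2 midpoints of the sites, which include the POU3F1 side. At POU3F1 midpoints it was less frequent at the sites than in POU3F1 peaks without other TFs (21.1%), with a difference of -2.27 points (-3.23 to -1.29). The GC content was 36.5% at the SOX2 midpoints and 33.2% at the POU3F1 midpoints, against 37.1% in windows 1000 bp from the latter, so AT-rich words and base composition changed together. How much of the word counts follows from base composition was not tested.

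The shares at the midpoints differed more where the midpoints were farther apart, up to 1000 bp. In the 813 sites with midpoints under 100 bp apart, the SOX sequence was present in 54.7% of SOX2 and 49.7% of POU3F1 windows, which cover nearly the same DNA. At distances of 500 to 1000 bp (2232 sites), these shares were 57.8% (55.7 to 59.8) and 32.1% (30.2 to 34.0). The octamer was arranged in the opposite way, with 2.42% (1.86 to 3.14) at the SOX2 and 7.57% (6.55 to 8.74) at the POU3F1 midpoint of these 2232 sites, and TAATTA with 7.30% and 22.1%. In the 898 sites with midpoints 1000 bp or more apart, the SOX sequence was at 57.2% and 29.7%, whereas the octamer (3.79% and 6.01%) and TAATTA (7.46% and 18.2%) differed less than at 500 to 1000 bp. In bins of 100 bp along the 2232 sites at 500 to 1000 bp, the SOX sequence was most frequent in the bin centred on the SOX2 midpoint (35.8%, 33.8 to 37.8). It amounted to 15.8% in the bin 500 bp towards POU3F1. The octamer was least frequent in the bin on the SOX2 midpoint (0.851%, 0.546 to 1.33) and reached 3.49% (2.81 to 4.34) in the bin 900 bp towards POU3F1.

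**Figure D2:**
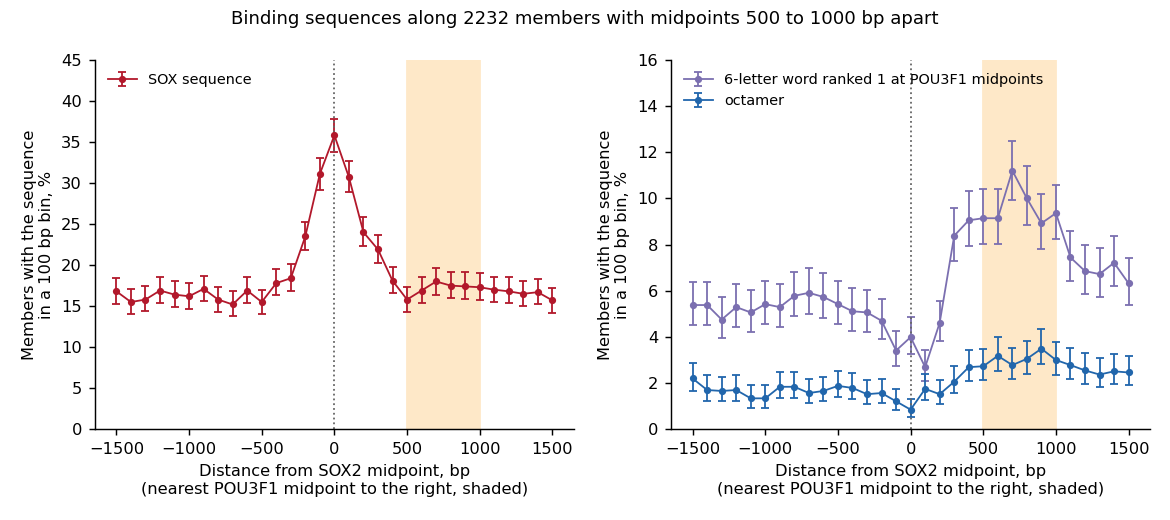
Percent of the 2232 sites with midpoints 500 to 1000 bp apart that contained the SOX sequence (left) or the octamer and the top-ranked word TAATTA (right) in bins of 100 bp, by distance in bp from the SOX2 midpoint, with 95% Wilson intervals. Sites were oriented so that the nearest POU3F1 midpoint lay to the right, in the shaded range, and the SOX sequence peaked at 35.8% at 0 bp while TAATTA reached 11.2% at 700 bp.

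Fixed arrangements of a SOX sequence and an octamer were rare. The arrangement known from POU5F1-SOX2 enhancers, a CATTGT or CTTTGT followed on the same strand by 1 base and the octamer, was found at 0 of the 6903 sites within 300 bp of the SOX2 midpoint, which allows a share of up to 0.0435% by counting error alone. It was also found at 0 of the 2984 SOX2 peaks with POU5F1 and POU3F1, and at 7 of the 42646 SOX2 peaks without other TFs. Pairs with a gap of 0 to 30 bp in any order or orientation were present at 125 sites (1.81%), at 1.80% of the SOX2 peaks without other TFs, at 2.78% of those with POU5F1 and POU3F1, and at 1.19% of windows 1500 bp after the sites. The octamer dimers named MORE and PORE, which POU proteins bind in pairs, were found in 2 and 1 of the 6916 POU3F1 midpoint windows and in 0 and 1 of the SOX2 midpoint windows.

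The most frequent single arrangement was an octamer followed after 22 bp by ACAATG or ACAAAG, at 7 sites (0.101%). It was more frequent at SOX2 peaks without other TFs, with 248 of 42646 (0.582%). In the windows 1500 bp after the sites it had the same share as at the sites, with 7 (0.101%). The 2 of these 7 sites with the highest SOX2 scores are shown on the strand of the octamer, because their DNA was alike well beyond the binding sequences.
Site E, SOX2 score 213, chr9:100668010-100668129, minus strand: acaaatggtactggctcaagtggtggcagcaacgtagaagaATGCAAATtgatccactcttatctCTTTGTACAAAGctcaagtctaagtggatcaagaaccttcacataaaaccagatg
Site F, SOX2 score 155, chr1:101752070-101752189, plus strand: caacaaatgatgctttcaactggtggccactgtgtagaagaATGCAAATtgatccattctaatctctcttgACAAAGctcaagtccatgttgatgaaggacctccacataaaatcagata

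Sites E and F lay in introns of Stag1, which encodes a cohesin subunit, and of Cntnap5b, a gene of the contactin-associated protein family. The printed stretches, with their octamers, lay outside the nearest POU3F1 peaks, which were at chr9:100668789-100669510 and chr1:101751049-101751964. The stretches of sites E and F were identical at 89 of 120 positions. Across the 21 pairs among the 7 sites, identity ranged from 58 to 109 of 120 positions, and 1 of the sites had at most 73 in all of its comparisons. Occurrences with shared DNA are not independent of each other. At the SOX2 midpoint GGATTA, bound by OTX2, was somewhat less frequent than in its surroundings. It was found in 7% of sites (6.42 to 7.62) and 8.23% (7.78 to 8.70) of windows 1000 bp away. CAGCAGG, searched for as the ZIC sequence, was found in 2.96% (2.58 to 3.38) and 2.35% (2.11 to 2.62). In all SOX2 peaks GGATTA was found in 8.22% and CAGCAGG in 3.35%. Runs of alternating purine and pyrimidine of at least 20 bp were found in 0.681% of the sites and 3.9% of windows 1000 bp away, and in 0.653% of all SOX2 peaks.

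Both peaks were usually present in the activin-free lists as well. An activin-free SOX2 peak overlapped 76.9% of the sites (75.9 to 77.9), compared with 77.6% of all SOX2 peaks. The difference from SOX2 peaks without other TFs (77.2%) was -0.259 points (-1.34 to 0.799). An activin-free POU3F1 peak overlapped 81.2% (80.3 to 82.1), compared with 17.1% of all SOX2 peaks and 2.15% of SOX2 peaks without other TFs. The selection required an EpiSC POU3F1 peak at the sites and excluded one from the latter peaks, so it set this contrast. SOX2 peaks with POU5F1 and POU3F1 had 93.0%, and windows of the same width 10 kb before and after the sites had 26.6% and 25.8%. Among the POU3F1 peaks themselves, not matched for score, the share was 83.9% at the sites and 79.1% without other TFs. All POU3F1 peaks were also divided by score into 4 bins. From the lowest to the highest bin, the shares were 43.3%, 77.1%, 97.0% and 100% at the sites. Without other TFs they were 51.9%, 80.9%, 97.8% and 100%. Below the highest bin, the share at the sites was thus the lower one. Counted on the SOX2 peak itself, activin-free peaks of both TFs were found at 4306 sites (62.4%), and 204 (2.96%) had no activin-free peak of any of the 5 TFs.

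Retention of each peak followed its own EpiSC score. When all SOX2 peaks were divided by score into 4 bins of equal size, the share of sites with an activin-free SOX2 peak was 52.1%, 70.4%, 85.0% and 96.6% from the lowest to the highest bin, and it was 55.5%, 71.4%, 85.9% and 97.4% for SOX2 peaks without other TFs. The sites were lower in each bin, and in the lowest bin their interval (49.7 to 54.5) did not overlap that of the other peaks (54.6 to 56.5). The activin-free POU3F1 share did not follow the SOX2 score, with values between 80.8% and 82.5% in the 4 bins. Sites without an activin-free SOX2 peak had a median EpiSC SOX2 score of 66.6, against 118 for those with one, and for POU3F1 these medians were 94.1 and 342. With EpiSC and activin-free peaks of the same TF matched to each other as for the positions, Spearman's rho of the scores was 0.590 for SOX2 (n = 5310) and 0.810 for POU3F1 (n = 5802), given as a description across sites of 1 library per culture.

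**Figure D3:**
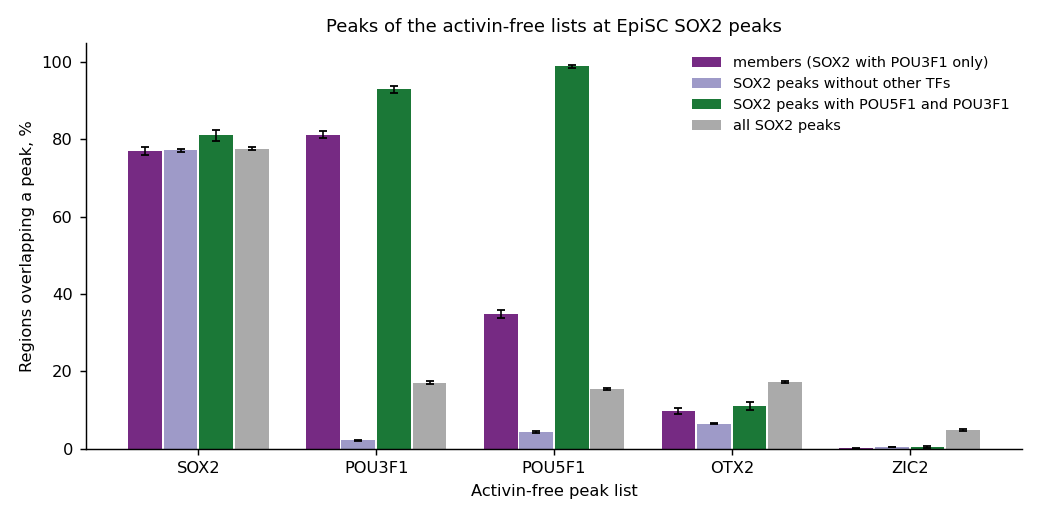
Percent of EpiSC SOX2 peaks that overlapped a peak of each activin-free list by at least 1 bp, for the SOX2-POU3F1 sites (members), SOX2 peaks without other TFs, SOX2 peaks with POU5F1 and POU3F1, and all SOX2 peaks, with 95% Wilson intervals. In the POU5F1 list the SOX2-POU3F1 sites stood at 34.9%, between 4.38% for SOX2 peaks without other TFs and 98.9% for those with POU5F1 and POU3F1.

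POU5F1, which the selection excluded in EpiSCs, had an activin-free peak at 2407 sites (34.9%, 33.8 to 36.0). This compares with 15.4% of all SOX2 peaks and with 4.38% of SOX2 peaks without other TFs, a difference of 30.5 points (29.4 to 31.6). Stretches of the same width 10 kb before and after the sites overlapped an activin-free POU5F1 peak in 20.0% and 19.4%. These stretches, which were not selected for the absence of POU5F1, overlapped an EpiSC POU5F1 peak in 8.97% and 8.59%. The activin-free POU5F1 list held 126751 peaks on these chromosomes and the EpiSC list 62387. When it was reduced to its 62383 peaks with scores over 214, 13.5% of the sites (12.8 to 14.4) and 9.26% of all SOX2 peaks overlapped it. The part of list size in the 34.9% was not tested further.

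The POU5F1 share of the sites matched that of POU3F1 peaks elsewhere more closely than that of SOX2 peaks. Taken by their POU3F1 peaks, and leaving out those that touched an EpiSC POU5F1, OTX2 or ZIC2 peak, 37.4% of 5974 overlapped an activin-free POU5F1 peak, compared with 35.3% of POU3F1 peaks without other TFs. In 4 bins of the POU3F1 score, likewise from all POU3F1 peaks, the shares were 22.0%, 27.1%, 37.6% and 57.9% at the sites and 24.1%, 30.3%, 40.0% and 59.1% elsewhere. Within the second bin the difference was -3.22 points (-5.51 to -0.816), and the intervals of the other 3 bins included 0. The POU5F1 share of the sites did not vary with the SOX2 score, being 34.6%, 35.1%, 34.9% and 34.9% from the lowest to the highest bin.

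An activin-free OTX2 peak overlapped 673 sites (9.75%), compared with 17.3% of all SOX2 peaks, which include those with OTX2 in EpiSCs, and 6.53% of SOX2 peaks without other TFs, a difference of 3.22 points (2.50 to 3.98). Among SOX2 peaks with POU5F1 and POU3F1 the share was 11.1%. Windows 10 kb before and after the sites had an OTX2 share of 8.03% and 8.20%, against 4.13% and 4.30% in the EpiSC list. ZIC2, which the selection excluded in EpiSCs, was present at 9 sites (0.130%, 0.0686 to 0.248) against 4.83% of all SOX2 peaks and 0.476% of SOX2 peaks without other TFs. The windows 10 kb before and after the sites, which were not selected for the absence of ZIC2, had a ZIC2 share of 1.51% and 1.87% in the activin-free and 1.64% and 1.96% in the EpiSC list. When the selection was repeated on the activin-free lists, it gave 5068 of 87781 SOX2 peaks (5.77%), of which 2289 (45.2%) overlapped an EpiSC site. Of the EpiSC sites, 2381 (34.5%) had activin-free SOX2 and POU3F1 peaks alone and 1463 (21.2%) had these with POU5F1 and no other.

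**Figure D4:**
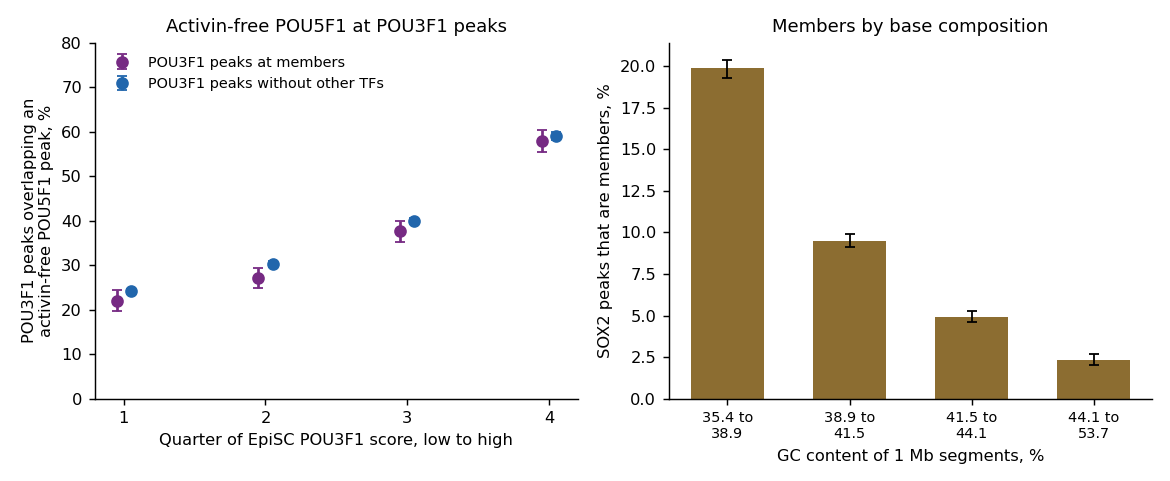
Left, percent of POU3F1 peaks overlapping an activin-free POU5F1 peak, by bin of the EpiSC POU3F1 score, for POU3F1 peaks at the sites that were free of EpiSC POU5F1, OTX2 and ZIC2 and for POU3F1 peaks without other TFs, with 22.0% to 57.9% and 24.1% to 59.1% from the lowest to the highest bin. Right, percent of SOX2 peaks that were SOX2-POU3F1 sites in 4 bins of 1 Mb segments by GC content, from 19.9% in the lowest to 2.31% in the highest, both with 95% Wilson intervals.

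The sites lay in AT-rich DNA with few genes. Of 2581 segments of 1 Mb with a peak of any TF, 1524 had a site. When segments were divided by GC content into 4 bins of equal number, the lowest bin (35.4 to 38.9%) had a median of 1 protein-coding gene start, and 4029 of its 20258 SOX2 peaks (19.9%) were SOX2-POU3F1 sites. In the highest bin (44.1 to 53.7%), with a median of 14 gene starts, this share was 2.31%. Spearman's rho across segments between GC content and the number of peaks was -0.794 for POU3F1, -0.431 for SOX2 and -0.613 for the sites. The POU3F1 list, on which the sites were selected, thus had the same trend.

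Most sites were far from TSSs. The median distance from the SOX2 midpoint to the nearest of 86803 TSSs was 54.7 kb, and 52.2% of the sites (51.1 to 53.4) were farther than 50 kb from one. For SOX2 peaks without other TFs this share was 41.9%, a difference of 10.3 points (9.06 to 11.6), and for POU3F1 peaks without other TFs it was 55.1%. It was 52.0% for SOX2 peaks with POU5F1 and POU3F1, a difference of 0.194 points (-1.95 to 2.34). A TSS lay within 1 kb of 117 sites (1.69%), compared with 3.81% of all SOX2 peaks and 2.22% of those without other TFs. The SOX2 midpoint was between genes at 3970 sites (57.5%), in an intron of a protein-coding gene at 2607 (37.8%), in an exon of one at 193 (2.80%), of which 89 were in coding sequence, and in another annotated gene at 133. The shares between genes, in introns and in exons were near those of all SOX2 peaks (56.4%, 39.0% and 2.44%). Coding sequence was more frequent at the sites, with 1.29% (1.05 to 1.58) against 0.766% (0.702 to 0.837) of all SOX2 peaks.

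Genes with many sites were mostly long. The 10 protein-coding genes with the most sites included Lrp1b (31), Ptprd (25), Dach1, Csmd3 and Fam190a (18 each), Erbb4 and Magi2 (17 each) and Dlg2 (16). Dlg2 encodes a postsynaptic scaffold, and Ptprd is a receptor tyrosine phosphatase of synapses. In Lrp1b, which encodes a receptor of the LDL receptor family and spans 2058 kb of chromosome 2 (40450768 to 42509118), 31 of 110 SOX2 peaks were SOX2-POU3F1 sites, among 364 POU3F1 peaks. Long genes have more room for sites, and per Mb of gene the values were 15.1 for Lrp1b and 8.23 for Dlg2. Dach1, a nuclear factor of the retinal determination network, was the densest of the 10, with 47.0 per Mb in 383 kb of chromosome 14 (98186066 to 98568984).

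A list of 32 large genes of neuronal adhesion and synapses, chosen with earlier results of these data known, had a site in 27 of 32 genes (84.4%), compared with 5.49% of all 22350 protein-coding genes and 70.5% of the 200 genes of at least 500 kb. The 5 without a site were Ntm, Cadm2, Pcdh9, Dcc and Unc5d. Together they held 298 of the 6903 sites. The list had 7.60 sites per Mb, the genes of at least 500 kb had 4.80, and all protein-coding genes had 2.78. Relative to POU3F1 peaks the list did not stand out, with 298 sites for 4830 POU3F1 peaks, compared with 2829 for 43120 in all protein-coding genes. Counting sites within 50 kb as well, 11.6% of all protein-coding genes had one.

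Few genes known for SOX-POU enhancers or for the epiblast had a site, as was the case for protein-coding genes at large. A site lay in or within 50 kb of 0 of 12 SOX and POU targets (Nes, Fgf4, Utf1, Fbxo15, Nanog, Sox2, Pou5f1, Lefty1, Sox21, Pax6, Dll1 and Hes5), 1 of 16 genes of the epiblast and pluripotency, 1 of 17 neural plate genes and 0 of 12 genes of the primitive streak and endoderm. The epiblast gene was Fgf5, a signalling factor and marker of the postimplantation epiblast. Its site lay in an intron, 6.51 kb downstream of the gene start, with a SOX2 peak at chr5:98689335-98690100 (score 52.7) and a POU3F1 peak at chr5:98687631-98689610 (score 463), and both peaks, together with a POU5F1 peak, were present in the activin-free lists. The neural plate gene was Zic1, with a site 30.3 kb upstream (SOX2 score 68.6, POU3F1 score 62.2) that had a POU3F1 but no SOX2 peak in the activin-free lists. Against the 11.6% of all protein-coding genes, counts of 0 or 1 in lists of this size do not set these genes apart.

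The 10 sites with the highest scores of both TFs, ranked by the lower of their 2 percentiles among the sites, were led by a site in an intron of Zfhx4, which encodes a zinc finger homeodomain TF. Its SOX2 peak (chr3:5237049-5238434) had a score of 486 and its POU3F1 peak (chr3:5232419-5237460) a score of 2455, with midpoints 2802 bp apart. The activin-free scores of these peaks were 558 and 3100. Another of the 10 also lay in an intron of Zfhx4 (chr3:5333744-5334939, SOX2 score 387 and POU3F1 score 3082, midpoints 759 bp apart). Zfhx4 had 8 sites among its 22 SOX2 peaks, or 40.5 per Mb.

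The second of the 10 lay in an intron of Brip1, which encodes a DNA helicase of DNA repair (chr11:85969083-85970424, SOX2 score 598 and POU3F1 score 2371). Others lay 59.5 kb from the start of Sema3e, a guidance factor (588 and 1785), 44.6 kb from that of Ralyl (396 and 2251), and 169 kb from that of Hapln1, a linker of the extracellular matrix (377 and 3100). A site in an intron of Chi3l3, a chitinase-like gene, had scores of 405 and 3089, and the SOX2 midpoint of a site in Fign (351 and 3100) fell in an exon. The POU3F1 peaks of the 10 were 3740 to 7262 bp wide and their midpoints were 532 to 2885 bp from those of SOX2. All 10 had an activin-free POU3F1 peak and 9 of 10 an activin-free SOX2 peak, while 7 of 10 had an activin-free POU5F1 peak. The exception for SOX2 was 1 of 2 sites on chromosome 18, with an EpiSC score of 393. For SOX2 and POU3F1 these counts were near the shares at high scores in general. In the highest SOX2 score bin, 96.6% of sites had an activin-free SOX2 peak. In the highest POU3F1 score bin, 100% of the POU3F1 peaks at sites met an activin-free POU3F1 peak and 69.0% an activin-free POU5F1 peak. The 69.0% was counted along whole POU3F1 peaks, including those that touched an EpiSC POU5F1 peak. The 7 of 10 for POU5F1 was counted on the SOX2 peak, where the share in the highest SOX2 score bin was 34.9%. These POU5F1 values are therefore not like measures. None of the sites overlapped coding exons of the 5 TF genes, where DNA of the expression plasmids could map.

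Some segments of 1 Mb held many sites. The 1 Mb segment with the most sites, 27 of 85 SOX2 peaks, was on chromosome 11 from 37000001 to 38000000, and the next segment had 26 of 70. These segments held 132 and 181 POU3F1 peaks, and 1 and 0 starts of protein-coding genes. The third, on chromosome 14 from 98000001 to 99000000, contained Dach1 and 25 sites. Neighbouring sites were 87.6 kb apart in the median, and 921 of 6883 gaps (13.4%) were under 10 kb. By chromosome, the number of sites ranged from 1.25 per Mb on X to 4.49 on chromosome 18, which also had the most SOX2 peaks per Mb (41.2). As a share of the SOX2 peaks, chromosome 12 was highest with 13.4% and chromosome 7 lowest with 7.70%.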

How the data were processed

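ChIP-seq of biotinylated ZIC2, OTX2, SOX2, POU5F1 and POU3F1 was carried out in EpiSCs and activin-free EpiSCs, with 1 library for each TF and culture. Reads had been aligned by the authors (Bowtie2, mm9), who then ran MACS1.4 against input DNA with its defaults apart from band width. The deposited lists give peak positions and a score, which is -10 times the base 10 logarithm of the MACS p-value and was at least 50. They contain no reads, so the depth is unknown. Positions are counted from 1.

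Overlap was counted from 1 bp on chromosomes 1 to 19 and X. Shares of regions are given with Wilson intervals and differences with Newcombe intervals at the 95% level, which cover counting error only and treat neighbouring regions as independent. No p-values were computed, since no group had a replicate. Sequences were read from NCBIM37 (mm9) and genes from GENCODE vM1. The symbol Sox1 of the neural plate list was not matched. Sites named were the 10 with the highest lower percentile of both scores, and genes named were the 10 with the most sites, of which 2 are not reported here, and 5 lists. Sequences printed were those with binding sequences nearest to the midpoints, or in the most frequent arrangement, with the highest SOX2 scores, none of them on chromosome 18. The sites and lists were chosen with earlier results of these data known. Overlap counting was tested on simulated data. All steps were run in Python (3.11.15; numpy 2.4.6; scipy 1.17.1; matplotlib 3.10.9).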

Additional observations from a re-analysis of the deposited data

How the results depend on the processing

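Of 56 alternatives, 29 left the value within its counting interval (or, for the number of sites, within 1.5 times) and 27 moved it. With a score of at least 100 for both peaks, the number of sites fell to 2812, the activin-free shares were 91.5% for SOX2, 89.9% for POU3F1 and 38.0% for POU5F1, and 53.7% were farther than 50 kb from a TSS. With an overlap of 50% of the narrower peak, the activin-free share was 84.3% for POU3F1 and 37.8% for POU5F1. Without any POU5F1, ZIC2 or OTX2 peak within 1000 bp, it was 31.4% for POU5F1, and 54.0% were far from a TSS. With POU3F1 peaks up to 2000 bp wide, it was 77.5% for POU3F1 and 30.7% for POU5F1. With SOX2 peaks under 1000 bp, it was 73.1% for SOX2, and the SOX sequence share was 59.0%. Requiring the activin-free peak to cover 50% of the SOX2 peak gave 74.6% for SOX2, 60.8% for POU3F1 and 19.8% for POU5F1, and requiring it to score at least 100 gave 56.3%, 69.8% and 24.3%. The reduced POU5F1 list gave 13.5%. With windows of 50 bp to either side, the octamer share was 1.38% and the SOX sequence share 34.9%, as fewer letters were searched. Centred on the shared stretch they were 4.07% and 49.7%, and centred on the nearest POU3F1 midpoint 6.27% and 37.0%. With TSSs of protein-coding transcripts, 69.8% were farther than 50 kb. The reduced list and the POU3F1 centre were chosen after seeing the data, and where no cause is given, the cause was not tested. No paired analysis was possible because each TF had 1 library in each culture and no test was run. Depth limits which weak peaks were called: a site without a peak in a list is a site at which none passed the score of 50, and midpoints only approximate the bound position in wide peaks.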
